A study of Schizosaccharomyces pombe with 29 samples.

Results

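Fission yeast cells that lack RNase H were compared directly with fission yeast cells that make it in excess. The comparison took the RNA-seq libraries of 2 Schizosaccharomyces pombe strains, rnh1∆rnh201∆ (2 libraries) and pRnhA (3 libraries), which are 5 of the 29 samples of the series. In rnh1∆rnh201∆ the genes rnh1 and rnh201 are deleted, and in pRnhA the Escherichia coli gene rnhA is overexpressed. WT libraries (3) were kept out of the test and used only to place each gene relative to the unaltered strain. The genes were taken from the authors' deposited table of normalized counts, in which 6457 of 7016 rows had a mean of at least 1 over the 5 libraries and entered the test. A difference is given throughout as the mean log2(value + 1) in rnh1∆rnh201∆ minus that in pRnhA, so a positive value means more RNA in the strain without RNase H. The cells of all 3 strains were cultured in PMG, a minimal medium, and moved to 34 °C for 3 hours, per the labels' protocols. The labels name neither the promoter nor the carrier of rnhA, and they do not say whether the replicates came from separate cultures, so p-values measure only the spread between these libraries.

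RNase H enzymes cut the RNA strand of RNA-DNA hybrids, including R-loops, in which a transcript pairs with its template and displaces the other DNA strand. RNase H1, encoded by rnh1, acts on stretches of hybrid, while RNase H2, a complex of a catalytic subunit and accessory subunits, also removes single ribonucleotides from DNA. The bacterial enzyme RnhA is widely expressed in eukaryotic cells as a tool to lower the amount of hybrids. The strains therefore carry opposite changes in the capacity to degrade hybrids, and the comparison asks which transcripts differ between these ends.

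The normalized counts summed to between 8392168 and 8513720 in pRnhA and to 8635280 and 8889190 in rnh1∆rnh201∆; the number of reads behind them is unknown. Replicates 1 and 2 of pRnhA were the closest pair (r = 0.996 over 5336 genes with a mean of at least 50), and the rnh1∆rnh201∆ pair stood at r = 0.982. The libraries also differed in mating type. The M-type gene mat1-Mc was at 710 and 730 in pRnhA replicates 1 and 2 and at 820 in rnh1∆rnh201∆ replicate 2, but at 1 and 3 in pRnhA replicate 3 and rnh1∆rnh201∆ replicate 1. The P-type gene mat2-Pc had the reverse pattern, with 460 and 640 in these last libraries and at most 4 in the others. Each strain thus held libraries of both types. The subtelomeric helicase gene tlh1, a near copy of tlh2, was at 44, 35 and 4900 in pRnhA and at 3100 and 4000 in rnh1∆rnh201∆. Its difference of 4.14 did not pass the test (limma adjusted p = 0.394), and it was -0.66 among the P-type libraries and 6.64 among the M-type libraries. Neither split followed strain. For several of the genes and lists that follow, the difference among the P-type libraries (1 against 1) and among the M-type libraries (1 rnh1∆rnh201∆ against 2 pRnhA) is given beside the pooled value, with no test.

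The deleted genes had the largest falls of all rows past the threshold. The normalized count of rnh201, the catalytic subunit of RNase H2, was 410, 460 and 440 in pRnhA and 7 and 12 in rnh1∆rnh201∆. The difference was -5.42 (SE 0.23, limma adjusted p = 0.00815), with -5.78 among the P-type and -5.07 among the M-type libraries. For rnh1 the values were 300, 300 and 320 in pRnhA against 36 and 23 in rnh1∆rnh201∆, a difference of -3.37 (SE 0.20, adjusted p = 0.0119), or -3.12 among the P-type and -3.65 among the M-type libraries. In WT rnh1 stood at 320, 300 and 290, overlapping pRnhA, while rnh201 at 390, 360 and 300 lay below every pRnhA library. The values of both genes match the strain labels in all 5 libraries. The level of the bacterial rnhA transcript was not analysed here.

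The accessory subunits of RNase H2 did not pass the test. The row SPBC1347.08c, annotated as rnh202, read 790, 800 and 810 in pRnhA and 840 and 900 in rnh1∆rnh201∆ (difference 0.12, adjusted p = 0.21). The row SPAC12B10.15c, annotated as rnh203, read 51, 47 and 60 against 97 and 29, so the 2 rnh1∆rnh201∆ libraries lay on either side of pRnhA. Next to rnh1 lies SPBC336.05c, annotated as an S-adenosylmethionine-dependent methyltransferase gene, and it rose. It was at 58, 51 and 61 in pRnhA, at 65, 59 and 69 in WT and at 150 and 170 in rnh1∆rnh201∆, a difference of 1.48 (SE 0.12, adjusted p = 0.025; 1.28 P-type, 1.63 M-type). Its annotated span overlaps that of cdc6, the catalytic subunit of DNA polymerase delta, which was at 1700, 1700 and 1600 in pRnhA and at 1800 in each rnh1∆rnh201∆ library (difference 0.11, adjusted p = 0.198). WT overlapped pRnhA in SPBC336.05c, and only the deletion strain stood apart. Whether reads assigned to SPBC336.05c come from the altered rnh1 locus was not tested.

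Across all tested rows, 72 differed between the strains at a limma adjusted p under 0.05 (1.12% of 6457). Of these, 53 were higher in rnh1∆rnh201∆ (0.821%) and 19 were lower (0.294%). Among them, 14 rows differed by at least 1 on the log2 scale (0.217%), of which 10 were lower in rnh1∆rnh201∆ and 4 were higher. The 10 include the deleted genes rnh1 and rnh201 and 4 rows of a repeated gene family, SPAC977.01, SPAC750.05c, SPBC1348.02 and SPBPB2B2.19c, and the other 4 were SPNCRNA.504, prl10, SPNCRNA.1239 and SPBC409.08. The rows that rose had a median of 0.43 and ranged from 0.21 to 1.62. The rows that fell had a median of -1.03, with the deleted genes and the 4 rows of the repeated family included. At an unadjusted p under 0.05 there were 1407 rows (21.8%). The median over all tested rows was 0.009, a value that the authors' normalization sets near 0, so a general shift between the strains could not be read from these values.

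**Figure D1:**
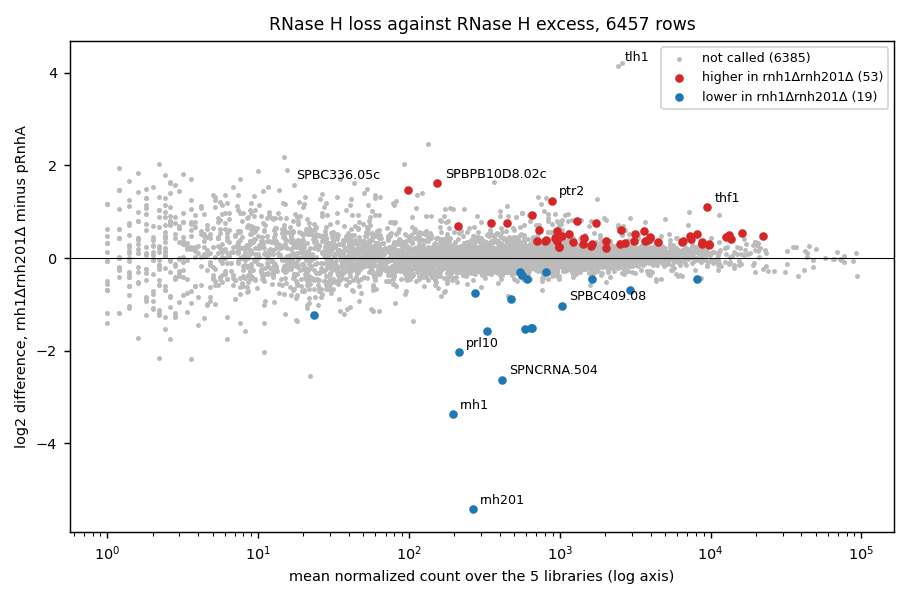
Log2 difference between rnh1∆rnh201∆ and pRnhA (vertical axis) against the mean normalized count over the 5 libraries (horizontal log axis) for 6457 rows, with rows past the threshold in red (53 higher in rnh1∆rnh201∆) and blue (19 lower). The blue points reach lower, to -5.42 for rnh201, than the red points reach upward, to 1.62, while tlh1 at 4.14 is grey because the pRnhA libraries disagree.

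With the libraries scaled to equal totals, which moved the median over all rows from 0.01 to -0.04, 224 rows passed, 116 higher and 108 lower. In all 72 rows the libraries of the strains did not overlap, which was so for 2063 rows overall (31.9%), and this fixes the sign of each difference in any subset of the libraries. The size of the difference among the P-type libraries was 0.62 to 1.32 times that among the M-type libraries over the 72 rows. The test favours rows whose libraries lie close together within each strain. That selection draws these ratios toward 1, so they do not check the effect of mating type. The count moved with the libraries and the model. It was 0 without any 1 of the pRnhA libraries. Without rnh1∆rnh201∆ replicate 1 it was 57, of which 19 were among the 72, and without replicate 2 it was 6, all among the 72; in these fits the lone library is assumed to vary like those of pRnhA. With the WT libraries in the fit 23 rows passed (0.356%), of which 20 were among the 72, and with a term for mating type 8 passed, all among the 72. The deposited values carry 2 significant digits, and 7 of the 72 rows had identical values within each strain. A floor under the spread at the size of this rounding, added after the data were seen, gave 312 rows.

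The 20 rows that also passed with the WT libraries in the fit were rnh1 and rnh201, 12 that rose and 6 others that fell. Those that rose were SPBC336.05c, SPBPB10D8.02c, ptr2, thf1, SPAC1296.01c, SPCC569.05c, SPNCRNA.1550, SPBP16F5.08c, pdp3, tra1, ams2 and alm1. Those that fell were SPNCRNA.504, prl10, SPBC409.08, gal7, SPNCRNA.1236 and SPAC1786.02. The monooxygenase gene SPBP16F5.08c (0.53), pdp3 (0.58), the coactivator subunit gene tra1 (0.45), the transcription factor gene ams2 (0.44), alm1 (0.39) and SPAC1786.02 (-0.68) are named because they passed both fits, a choice made after their values were seen. In bulk RNA, a transcript made by fewer cells and a transcript present at a lower level in every cell cannot be told apart.

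Among the rows lower in rnh1∆rnh201∆, the noncoding RNA SPNCRNA.504 had the largest difference after the deleted genes. It read 650, 600 and 630 in pRnhA and 93 and 110 in rnh1∆rnh201∆, while WT read 82, 140 and 150. The pRnhA libraries thus stood alone and the other strains overlapped. The mean of 627 ± 25.2 (SD, n = 3) in pRnhA was 6.14-fold that of 102 ± 12 (SD, n = 2) in rnh1∆rnh201∆, a difference of -2.62 (SE 0.09, limma adjusted p = 0.00696). It was -2.75 among the P-type and -2.49 among the M-type libraries. The noncoding RNA prl10 followed the same order, with 310, 300 and 310 in pRnhA, 67 and 83 in rnh1∆rnh201∆ and 55, 75 and 96 in WT (difference -2.03, adjusted p = 0.00936; -2.19 P-type, -1.86 M-type). Neither row was matched to the reference gene table, so no neighbour is given.

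A family of 4 rows annotated as transmembrane helix domain-containing proteins also stood higher in pRnhA: SPAC977.01 (ftm1), SPAC750.05c (ftm4), SPBC1348.02 (ftm5) and SPBPB2B2.19c. SPAC750.05c read 800, 780 and 820 in pRnhA, 290 and 260 in rnh1∆rnh201∆ and 260, 320 and 570 in WT (difference -1.54, adjusted p = 0.00815; -1.5 P-type, -1.6 M-type). For SPAC977.01 the values were 450, 430 and 460 against 160 and 140 (-1.57, adjusted p = 0.00934). SPBC1348.02 and SPBPB2B2.19c each differed by -1.51. The 4 rows moved in parallel in every library, WT included, where replicate 3 was highest for each. Copies of a family can share reads, so the rows cannot be counted as 4 separate events, and all 4 lost the call with the WT libraries in the fit (adjusted p from 0.0838 to 0.0915).

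The protein-coding row SPBC409.08, annotated as a transporter of the spermine family, read 1300 in all 3 pRnhA libraries and 630 and 640 in rnh1∆rnh201∆, with WT at 670, 700 and 750. Its difference of -1.03 had the smallest adjusted p of all rows (SE 0.03, adjusted p = 0.00449; -1.04 P-type, -1.02 M-type), and WT lay between the strains without touching either. The galactose pathway gene gal7, which encodes galactose-1-phosphate uridylyltransferase, read 560, 580 and 620 in pRnhA and 320 and 310 in rnh1∆rnh201∆, inside the WT range of 300 to 360 (difference -0.89, adjusted p = 0.0151). The phospholipase gene SPAC1786.02, chosen after its values were seen, read 3400, 3400 and 3500 against 2100 and 2200 (-0.68, adjusted p = 0.00934).

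The remaining noncoding rows that fell were lower in level or had smaller differences. SPNCRNA.1626, chosen after its values were seen, read 1800, 1900 and 1800 in pRnhA and 1300 and 1400 in rnh1∆rnh201∆ (difference -0.44, adjusted p = 0.045). Its WT libraries read 1500, 2100 and 1500, and it overlaps the rows mbx2 and SPBP8B7.32. SPNCRNA.1239 read 31, 30 and 31 in pRnhA and 12 and 13 in rnh1∆rnh201∆, with WT at 12, 4 and 4 (difference -1.23, adjusted p = 0.0496). It overlaps the kinase gene ssp1, whose difference of -0.19 did not pass (adjusted p = 0.197). SPNCRNA.1236 read 340, 340 and 310 against 190 and 200 (-0.76, adjusted p = 0.0294), while eaf1, a transcription elongation factor gene that it overlaps, stood at 0.30 and did not pass (adjusted p = 0.0969). The antisense transcript opt3-antisense-1 read 620, 610 and 620 in pRnhA, 480 and 480 in rnh1∆rnh201∆ and 360, 400 and 400 in WT (-0.36, adjusted p = 0.0325). The library kit was directional, but whether the counting used strand is not given in the sources used here, so reads of overlapping genes may be mixed. In all, 33 of the 67 rows past the threshold that matched the reference overlapped another tested row.

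On the other side, SPBPB10D8.02c, annotated as an arylsulfatase, had the largest rise among the rows past the threshold. It read 86, 69 and 98 in pRnhA, 240 and 280 in rnh1∆rnh201∆ and 220, 260 and 390 in WT, so it was low in pRnhA alone (difference 1.62, SE 0.18, adjusted p = 0.045; 1.28 P-type, 1.85 M-type). The peptide transporter gene ptr2 read 590, 510 and 620 in pRnhA and 1400 and 1300 in rnh1∆rnh201∆, with WT between them at 670, 780 and 890. This was a difference of 1.24 (SE 0.10, adjusted p = 0.0236; 1.17 P-type, 1.24 M-type). The folate enzyme gene thf1, which encodes a tetrahydrofolate synthase of one-carbon metabolism, was among the abundant transcripts that differed. It read 6500, 6300 and 6700 in pRnhA and 13000 and 15000 in rnh1∆rnh201∆, below the 19000, 17000 and 16000 of WT (1.10, SE 0.07, adjusted p = 0.0151). The thf1 difference was 0.96 among the P-type and 1.23 among the M-type libraries.

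A pair of annotated polyamine transporters thus lay on opposite sides. SPCC569.05c, of the spermidine family, read 1000, 990 and 1000 in pRnhA, 1800 and 1700 in rnh1∆rnh201∆ and 2000, 2200 and 2300 in WT (difference 0.81, SE 0.04, adjusted p = 0.00815; 0.85 P-type, 0.77 M-type), while SPBC409.08, described above, was highest in pRnhA. Both were among the 8 rows that passed with a term for mating type (adjusted p = 0.045 and 0.0434). SPAC1296.01c, a phosphoacetylglucosamine mutase gene of amino sugar synthesis, read 460, 510 and 480 in pRnhA and 950 and 890 in rnh1∆rnh201∆, inside the WT range of 850 to 970 (0.93, adjusted p = 0.0151). The flavoprotein gene cir2 read 1300, 1300 and 1500 against 2200 and 2400 (0.75, adjusted p = 0.045; 0.55 P-type, 0.88 M-type), with WT spread from 1200 to 2500. The arginase gene car1 read 590, 580 and 640 against 870 and 960 (0.60, adjusted p = 0.0478; 0.44 P-type, 0.71 M-type), and both strains lay far below WT at 1800, 6100 and 6700.

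The other rows named by size on this side were mug147 (0.76), SPNCRNA.1306 (0.75), SPNCRNA.1550 (0.69) and the sorbose reductase gene SPAC8E11.10 (0.61). SPNCRNA.1550 read 170 in all 3 pRnhA libraries, 270 and 280 in rnh1∆rnh201∆ and 250, 230 and 230 in WT, with no overlap between any of the groups. SPNCRNA.1306 read 270, 260 and 290 against 460 and 460, and its WT libraries spread from 470 to 900. With the WT libraries in the fit the call of SPNCRNA.1306 was lost (adjusted p = 0.231) and that of SPNCRNA.1550 was kept (adjusted p = 0.0203).

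**Figure D2:**
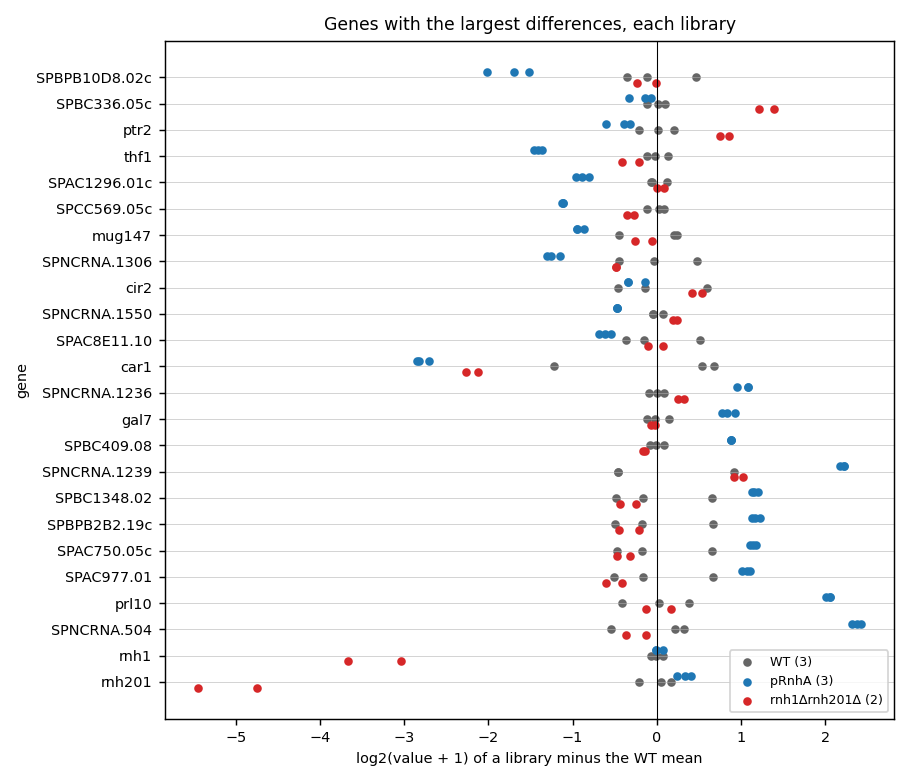
Each point is the log2(value + 1) of a library minus the WT mean of that gene, for the 12 rows with the largest rise and the 12 with the largest fall, rnh1 and rnh201 included; pRnhA is blue (3 libraries), rnh1∆rnh201∆ red (2) and WT grey (3). Away from the deleted genes and SPBC336.05c, most rows show the blue points displaced from WT, up for SPNCRNA.504 and prl10 and down for SPBPB10D8.02c and thf1, with the red points nearer the WT points.

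The position of WT was then read for the same rows. Among the 72, the WT mean lay nearer to rnh1∆rnh201∆ in 57, of which 41 were higher and 16 lower in that strain, and nearer to pRnhA in 15. Over all tested rows the WT mean lay nearer to rnh1∆rnh201∆ in 3938 (61.0%). The WT mean was between the strains in 35 of the 72, above both in 27 and below both in 10. Over all rows it was between them in 1482 (23.0%), above both in 2371 (36.7%) and below both in 2604 (40.3%). The 72 rows were selected for a gap between the strains, and a WT mean falls more easily inside a wide gap. The shares with WT between are therefore not alike. All 27 rows with WT above both strains were rows that rose, such as thf1, car1 and SPCC569.05c, so in these the pRnhA level was farther below WT than the rnh1∆rnh201∆ level. As these counts use WT means without a test, they describe the rows and do not show that a strain differs from WT.

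In 422 rows (6.54%) the libraries of the 3 strains did not overlap at all. The order WT, rnh1∆rnh201∆, pRnhA from high to low held for 196 rows (3.04%) and the reverse order for 139 (2.15%), so in 335 rows (5.19%) both altered strains lay on the same side of WT with pRnhA farther away. The deletion strain was the farther of the pair in 58 rows (0.898%), of which 26 had WT highest (0.403%) and 32 had WT lowest (0.496%). In 29 rows (0.449%) WT lay between the strains, 16 with rnh1∆rnh201∆ highest (0.248%) and 13 with pRnhA highest (0.201%). Over 5336 rows with a mean of at least 50, the median SD of log2 values was 0.127 in WT (3 libraries), 0.075 in pRnhA (3) and 0.066 in rnh1∆rnh201∆ (2). The median SD tends to be lower with 2 libraries than with 3, so the last value does not show a tighter strain. A middle group that is wider, or has more libraries, overlaps its neighbours more easily. The middle group was rnh1∆rnh201∆ in the 335 rows and pRnhA in the 58 rows. These counts therefore do not measure which strain lay farther from WT. The uracil-regulated gene urg1 is an example of the commonest order. It read 1900, 27000 and 46000 in WT, 740 and 980 in rnh1∆rnh201∆ and 350, 350 and 720 in pRnhA, and the difference of 0.93 between the strains did not pass (adjusted p = 0.257; 0.04 P-type, 1.48 M-type).

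**Figure D3:**
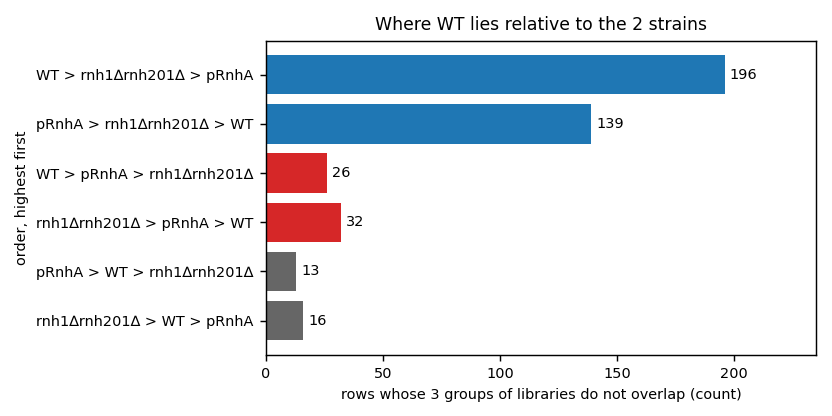
Number of rows (horizontal axis) in which the libraries of WT, pRnhA and rnh1∆rnh201∆ do not overlap, for each of the 6 orders (vertical axis, highest group first). The blue bars, with pRnhA farthest from WT (196 and 139 rows), are longer than the red bars, with rnh1∆rnh201∆ farthest (26 and 32), and the grey bars, with WT between them (13 and 16). The middle group has 2 libraries in the blue orders and 3 in the others, so the bar lengths are not directly comparable.

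Of the 29 rows with WT in the middle, 9 were among the 72, beside 1.12% of all rows that passed. Both sets require a gap between the strains, so this overlap is partly built in and was not tested. Of the 9, those with pRnhA highest were rnh201, SPBC409.08 and sfh1. Those with rnh1∆rnh201∆ highest were ptr2, SPNCRNA.1550, alm1, spo15, nce103 and top1. Apart from rnh201, SPBC409.08, ptr2, SPNCRNA.1550 and top1, they were chosen after their values were seen. The RSC chromatin remodeller gene sfh1 read 880, 880 and 870 in pRnhA, 750, 720 and 720 in WT and 700 and 710 in rnh1∆rnh201∆ (difference -0.31, adjusted p = 0.0329). The nuclear pore gene alm1 went the other way with 3300, 3400 and 3500 in pRnhA, 4200, 4000 and 4000 in WT and 4400 and 4500 in rnh1∆rnh201∆ (0.39, adjusted p = 0.0294). The carbonic anhydrase gene nce103 read 5800, 5800 and 5900 in pRnhA, 7100, 6100 and 6300 in WT and 7500 and 7400 in rnh1∆rnh201∆ (0.35, adjusted p = 0.0197). In sfh1, nce103 and spo15 the WT libraries lay close to those of 1 strain, and no step between neighbouring groups was tested.

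**Figure D4:**
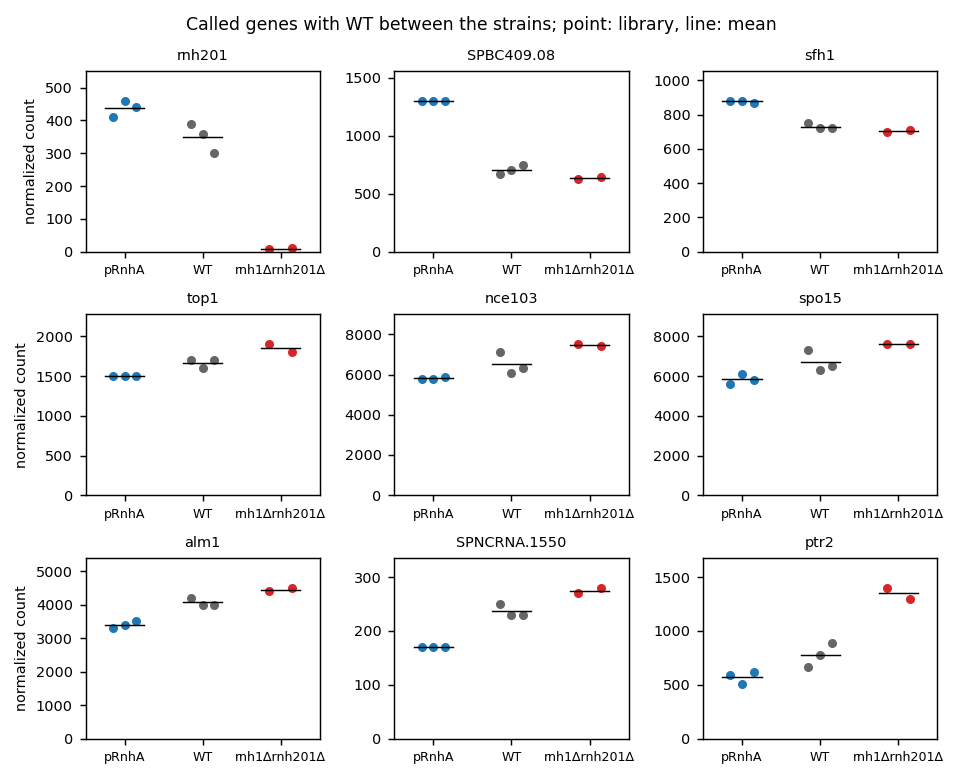
Normalized count (vertical axes, from 0) of each library in pRnhA (3), WT (3) and rnh1∆rnh201∆ (2), with the group mean as a line, for the 9 rows past the threshold whose WT libraries lie between the strains without overlap. The row rnh201 falls to a mean of 9.5 in rnh1∆rnh201∆. In the other rows the means of pRnhA and rnh1∆rnh201∆ differ by a smaller ratio, with 1500 and 1850 for top1 and 573 and 1350 for ptr2.

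Of 10 genes listed as RNA-DNA hybrid helicases and topoisomerases, top1 rose and no other passed, beside 0.821% of all rows that rose. The list median was 0.02 (-0.03 with libraries scaled to equal totals). The gene top1 encodes DNA topoisomerase I, which relaxes the supercoils that form behind RNA polymerase. It read 1500 in all 3 pRnhA libraries, 1700, 1600 and 1700 in WT and 1900 and 1800 in rnh1∆rnh201∆ (difference 0.30, SE 0.03, adjusted p = 0.045). The helicase gene sen1 read 2300, 2300 and 2100 in pRnhA and 2000 and 1800 in rnh1∆rnh201∆, both above WT at 1600, 1300 and 1300 (-0.23, adjusted p = 0.16). The top1 call was lost with the WT libraries in the fit (adjusted p = 0.0931).

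Of 24 DNA damage checkpoint and repair genes, 2 rose and none fell, beside 0.821% of all rows that rose and 0.294% that fell. Of its members, 13 were above 0 and 11 below with a median of 0.04, and with libraries scaled to equal totals 10 were above and 14 below with a median of -0.01. The recombination gene rad54 read 860, 830 and 880 in pRnhA, 1000, 1000 and 1100 in WT and 1100 in each rnh1∆rnh201∆ library (0.36, adjusted p = 0.0405). The gene rad50, of the complex that processes DNA ends, read 1500 in all 3 pRnhA libraries, 1800 in each rnh1∆rnh201∆ library and 1600, 1900 and 2200 in WT (0.26, adjusted p = 0.0294). In both genes WT lay above pRnhA in every library, and rad50 had identical values within each strain. The following genes were not on the list and were chosen after their values were seen. The mismatch repair gene msh6 (0.30, adjusted p = 0.025) and the repair helicase gene rhp16 (0.35, adjusted p = 0.0202) rose. Both also had identical values within each strain. The chromatin assembly factor gene pcf2 fell (-0.31, adjusted p = 0.0452). No count is given for repair genes off the list. None of the 3 genes of replication protein A, the single-strand DNA binding complex, passed (ssb3 at -0.56, adjusted p = 0.0803), nor did any of 10 ribonucleotide reductase and MBF target genes (median 0.12). None of 25 RNA interference and heterochromatin genes (median 0.01) and none of 20 exosome and RNA decay genes (median -0.03) passed.

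Chaperone genes stood mostly higher in rnh1∆rnh201∆. Of 17 heat shock chaperone genes tested, 2 rose and 16 had a difference above 0 (14 with libraries scaled to equal totals), with a median of 0.20 beside 0.009 over all rows. The median was 0.22 among the P-type and 0.18 among the M-type libraries, and 0.821% of all rows rose. The libraries of the strains did not overlap in 12, all higher in rnh1∆rnh201∆, beside 17.9% of all rows in that direction. The mitochondrial Hsp70 gene ssc1 read 11000 in each pRnhA library, 15000 in each rnh1∆rnh201∆ library and 16000, 12000 and 11000 in WT (0.45, adjusted p = 0.0116). The DNAJ protein gene psi1 read 2300 in each pRnhA library, 2900 and 2800 in rnh1∆rnh201∆ and 2300, 2100 and 1600 in WT (0.31, adjusted p = 0.0286). Just short of the threshold were the Hsp70 gene ssa1, at 1600, 1600 and 1700 against 2300 and 2100 (0.43, adjusted p = 0.06), and its partner mas5 (0.29, adjusted p = 0.06). The small heat shock protein gene hsp16 read 630, 660 and 480 against 1100 and 800 (0.68, adjusted p = 0.162; 1.19 P-type, 0.31 M-type). All cells had been kept at 34 °C, so these values compare strains within that treatment. Of 12 core stress response genes only the trehalose synthesis gene tps1 rose (0.33, adjusted p = 0.0294), and of 14 peroxide defence genes none passed (median -0.02).

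Core histone genes leaned the other way without passing. All 9 had a difference below 0, from -0.41 to -0.07 with a median of -0.25, and all 9 stayed below 0 with libraries scaled to equal totals. The median was -0.30 among the P-type and -0.21 among the M-type libraries. In 8 the libraries of the strains did not overlap, beside 14.1% of all rows in that direction. The histone H3 gene hht1 came nearest to the threshold with 2200, 2300 and 2300 in pRnhA and 1800 and 1900 in rnh1∆rnh201∆ (-0.29, adjusted p = 0.0613). WT read 2100, 2700 and 2800 for hht1. The histone H4 gene hhf3 read 630, 560 and 620 against 470 and 440 (-0.41, adjusted p = 0.078). Copies of the H3 and H4 genes have near-identical coding sequences, so their rows may share reads.

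Of 9 hexose transport and glucose repression genes tested, only ght5 rose, beside 0.821% of all rows, and 8 had a difference above 0. The list median was 0.38, with 0.12 among the P-type and 0.60 among the M-type libraries. The high-affinity glucose transporter gene ght5 read 3300, 3200 and 3300 in pRnhA, 4200 and 4300 in rnh1∆rnh201∆ and 5800, 5800 and 5100 in WT (0.38, adjusted p = 0.0232). Its relative ght4 read 340, 360 and 450 against 640 and 770, with WT at 790, 1100 and 1100 (0.88, adjusted p = 0.078; 0.51 P-type, 1.14 M-type). None of 9 amino acid and ammonium uptake genes passed, and their median of 0.20 was 0.07 among the P-type and 0.38 among the M-type libraries. The amino acid permease gene per1 read 440, 410 and 470 in pRnhA, 850 and 1400 in rnh1∆rnh201∆ and 2000, 4900 and 6400 in WT (1.31, adjusted p = 0.078; 0.85 P-type, 1.72 M-type). In ght5, ght4 and per1 the order was WT, rnh1∆rnh201∆, pRnhA from high to low with no overlap, as in 3.04% of all rows. No count of list members with that order is given. The sucrose and maltose symporter gene sut1, chosen after its values were seen, read 990, 980 and 980 against 1400 and 1400, with WT at 1400, 1600 and 1700 (0.51, adjusted p = 0.00936).

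Of 24 ergosterol synthesis genes tested, only erg31 rose, beside 0.821% of all rows, and 21 had a difference above 0. The list median was 0.09, beside 0.009 over all rows. With libraries scaled to equal totals, 17 were above 0 and the list median was 0.04, beside -0.04 over all rows. The sterol desaturase gene erg31 read 920, 900 and 860 in pRnhA, 1200 and 1300 in rnh1∆rnh201∆ and 1400, 890 and 1000 in WT (0.48, adjusted p = 0.045), while its paralog erg32 read 2100, 1800 and 1700 against 1600 and 1400 (-0.31, adjusted p = 0.211). The following genes were chosen after their values were seen. The fatty acid synthase gene fas2 read 12000 in each pRnhA library, 16000 in each rnh1∆rnh201∆ library and 18000, 17000 and 16000 in WT (0.42, adjusted p = 0.0151). The acetyl-CoA carboxylase gene cut6 read 11000, 11000 and 12000 against 16000 and 16000 (0.50, adjusted p = 0.0384), and the phospholipid methyltransferase gene cho2 read 6300, 6400 and 6400 against 8600 and 9000 (0.47, adjusted p = 0.0162). None of fas2, cut6 and cho2 belonged to a list, so no count is given for them as a group.

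Of 24 mitochondrial identifiers tested, SPMIT.02 and SPMIT.03 rose, beside 0.821% of all rows, and 18 had a difference above 0 (16 with libraries scaled to equal totals). Their median of 0.25 was 0.05 among the P-type and 0.29 among the M-type libraries. Their summed normalized counts overlapped between the strains, at 53841, 53196 and 56878 in pRnhA and 65158 and 56054 in rnh1∆rnh201∆. SPMIT.03 read 6500, 7100 and 7200 in pRnhA, 10000 in each rnh1∆rnh201∆ library and 7100, 11000 and 14000 in WT (0.53, adjusted p = 0.0384). All 13 Tf2 retrotransposon rows had a difference between 0.28 and 0.34 and none passed. Their median difference was 0.0 among the P-type libraries, whose summed counts were 251000 in pRnhA and 257000 in rnh1∆rnh201∆, and 0.55 among the M-type libraries, at 224000 and 225000 against 327000. The Tf2 copies are near-identical and their rows can share reads, so they cannot be counted as separate genes.

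Noncoding identifiers were counted beside 0.821% of all rows that rose and 0.294% that fell (1.12% in either direction), with no test of the counts. Of 623 SPNCRNA rows tested, 2 rose and 4 fell (median 0.05), and of 598 rows named as antisense transcripts none rose and 1 fell (median 0.04). The telomerase RNA gene ter1, chosen after its values were seen, read 750, 700 and 700 in pRnhA, 930 and 940 in rnh1∆rnh201∆ and 1100, 1000 and 810 in WT (0.38, adjusted p = 0.0499). None of 48 small nuclear and nucleolar RNAs passed, and their median was -0.09. None of 150 cytosolic ribosomal protein rows passed (median 0.0), none of 36 mitochondrial ribosomal protein rows (median -0.04), none of 39 nucleolar ribosome assembly genes (median -0.06) and none of 68 splicing factor genes (median -0.05). The lists of thiamine-repressed (7), phosphate (6), iron and heme acquisition (11), uracil-regulated (4), mating and pheromone (22) and Mmi1-removed meiotic genes (10) had no calls either, with medians of 0.0, -0.12, -0.01, 0.65, -0.01 and -0.02. The uracil-regulated median was 0.08 among the P-type and 1.03 among the M-type libraries, and the iron and heme median was 0.43 and -0.15.

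**Figure D5:**
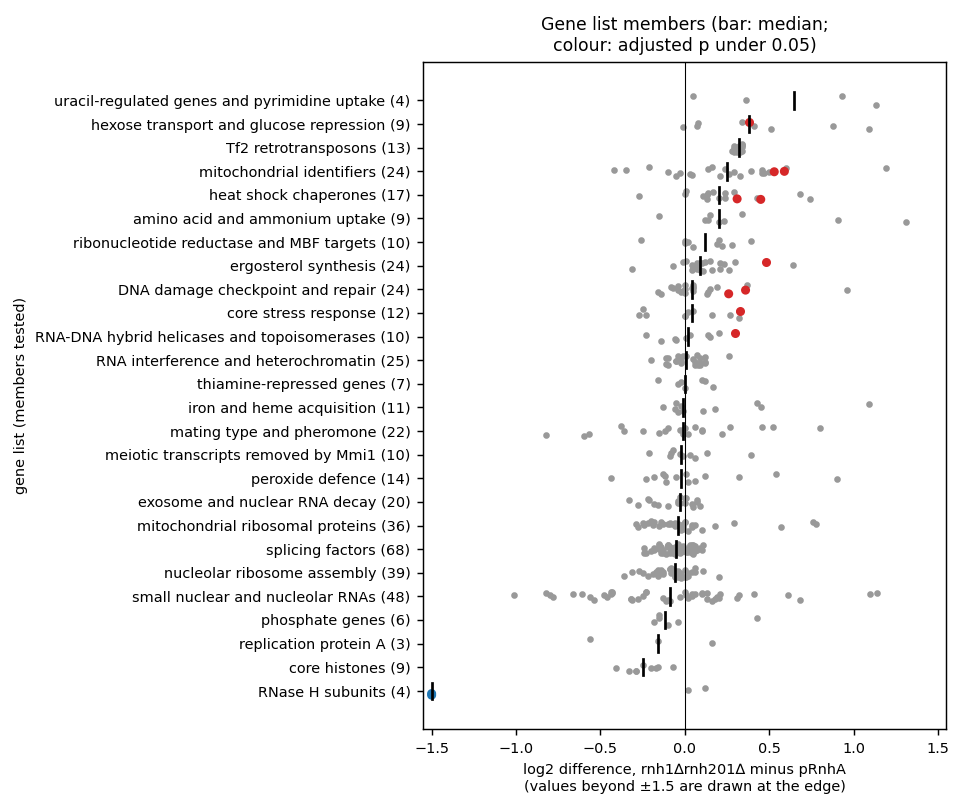
Log2 difference between rnh1∆rnh201∆ and pRnhA (horizontal axis) for each tested member of 26 gene lists (vertical axis, number tested in brackets), with the list median as a bar and members past the threshold in red (higher) or blue (lower). Core histones lie entirely below 0, heat shock chaperones lie above 0 but for 1 member, and splicing, ribosomal and RNA decay lists centre near 0.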

How the data were processed

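The deposited table holds a score per gene and library: per the file headers, the authors normalized counts with DESeq2. Every value is whole and has at most 2 significant digits, so the values are rounded and the depth is unknown. For that reason no counting interval accompanies them. The authors' deposited log2 fold changes and adjusted p-values in the same table were not used. TopHat2 2.0.5, DESeq2 and the builds hg19 and ASM294v2 are listed, with no role, per the submitters' processing notes; the counting tool, its use of strand and the annotation are not given in the sources used here. Names and neighbours came from a gene table of assembly ASM294v3, to which 6232 of 7016 rows matched; no coordinates or sequences are printed. The 18 DRIPc-seq and 3 small RNA samples were not analysed here.

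The 5 libraries were fitted with limma-trend (limma 3.58.1, R 4.3.3) on log2(value + 1), which understates differences of low genes, over rows with a mean of at least 1 across these libraries. The fit had 3 residual and 1.63 prior degrees of freedom, no block and Benjamini-Hochberg adjustment over all rows at a threshold of 0.05. An exact permutation test of 2 against 3 libraries cannot go below p = 0.1 and was not used. Alternatives were an offset of 4, a mean of at least 10, any value above 0, library totals, a robust prior, all 8 libraries, a replicate block, a mating-type term and leaving out each library; a floor under the spread at the rounding size was added after the data were seen. Mating type was read from mat1-Mc, mat2-Pc, mfm2 and map3.

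Genes were named by rule: rnh1 and rnh201, up to 4 members of each list past the threshold, and the 12 highest and 12 lowest differences past it without overlap whose higher strain averaged 20 or more. The strains, lists and rules were chosen with earlier results of these data known, and the small nuclear and nucleolar RNA list was set by reference biotype after the identifiers were seen.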

Additional observations from a re-analysis of the deposited data

How the results depend on the processing

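The count past the threshold (72, 53 higher and 19 lower in rnh1∆rnh201∆) was within 1.5 times with an offset of 4, a mean of at least 10 or any value above 0. It was 23 (15 and 8) with all 8 libraries, 224 (116 and 108) with library totals, 470 (320 and 150) with a robust prior, 8 (1 and 7) with a mating-type term and 312 (229 and 83) with the rounding floor. Leaving out a library gave 0 to 57 in all, 0 to 44 higher and 0 to 13 lower; it was 0 without any pRnhA library, with 1257 to 1477 rows at an unadjusted p under 0.05. With the replicate block it was 0, with 1056 rows at an unadjusted p under 0.05. Replicate numbers are shared by 2 pairs, whose deviations from the strain means correlated at -0.418 and 0.398 over 5336 genes. With 2 rnh1∆rnh201∆ libraries, the deviations of 1 are the negative of those of the other, so these values are not separate checks. Whether libraries of the same number shared a batch cannot be told from them. Of the 35 named genes, 14 kept the call with all 8 libraries, 8 with the mating-type term and 0 with the block. With 5 libraries and values of 2 significant digits, the estimate of the spread limits which rows pass; the cause of the moves was not tested.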
